A study of Mus musculus with 3 samples.

Results

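Genes for the synthesis of nucleotides and of the folate-bound carbon units that feed it were examined in maps of the transcription factor MYC in the mouse pancreatic ductal adenocarcinoma line Pan02. The 36 genes are a list of purine, pyrimidine, deoxynucleotide, serine and folate enzymes, out of 21887 protein-coding genes. They were listed by pathway and not by a threshold on a measured value, but with earlier results of these data known. All 36 matched the RefSeq table of GRCm38.p6 by symbol. Binding was mapped by CUT&Tag: a transposase held at the protein by an antibody cuts the DNA nearby and adds sequencing adapters. There were 3 libraries, 1 per group: MYC in cells with the empty vector, MYC in cells that stably express Flag-tagged POH1 (POH1-Flag cells), and Flag in the same POH1-Flag cells. POH1 (gene Psmd14) removes ubiquitin from proteins as the proteasome takes them up. The sources used here do not give the promoter behind the tagged protein, or whether either line is a clone or a pool.

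Purine rings are built stepwise on phosphoribosyl pyrophosphate (PRPP), and the finished inosine monophosphate is then turned into AMP or GMP. Pyrimidine rings are built first and joined to PRPP later, ribonucleotide reductase makes deoxynucleotides from ribonucleotides, and serine gives the carbon units that folate carries to purine and thymidylate synthesis. MYC, which pairs with MAX and prefers the E-box CACGTG, is well known for activating many genes of these pathways in proliferating cells.

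In vector cells 23 of the 36 genes had a MYC peak near a gene end (63.9%, Wilson 95% interval 47.6 to 77.5), and in POH1-Flag cells 34 had one (94.4%, 81.9 to 98.5). Near a gene end means that the peak's summit, its highest point, lay within 1 kb of either end of the gene. Over all protein-coding genes the shares were 28.2% in vector cells and 40% in POH1-Flag cells. All 23 genes with a vector peak had a peak again in POH1-Flag cells, where 1.99% of all genes with a vector peak had none. Among the 13 genes without a vector peak, 11 had one in POH1-Flag cells, against 17.2% of all genes without a vector peak. No member had a Flag peak near an end, and the share over all genes was 0.196%. The Flag peak closest to any member lay 46242 bp away, from Nme1. The lists differ in length, with 12175 peaks for MYC in vector cells, 22647 for MYC in POH1-Flag cells and 2936 for Flag. Their lowest −log10 p was 3.88, 3.59 and 4.46, so these counts rest on unlike cutoffs. The Wilson intervals treat the genes as random draws, which a chosen list is not, and the site that Ppat and Paics share counts for both. With 1 library per group the member counts compare libraries, and differences between the cell lines have no replicate spread to be read against.

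Promoter stretches are shown for Adss, Atic and Dut, 3 genes with among the highest MYC reads in POH1-Flag cells. Those of Rrm1, Rrm2 and Tyms, 3 genes without a vector peak, follow. Tyms, at 10 reads, was not among the strongest genes without a gene-end vector peak: Tk1 had 24 reads and Phgdh 19. The stretches are examples and give no motif shares. Each runs from 150 bases before to 30 bases after the annotated start, 5′ to 3′ on the gene's strand, from the RefSeq promoter table (GRCm38.p6). Capitals mark E-boxes, searched on both strands as the canonical CACGTG and as the variants CACGCG or else CATGCG or else CATGTG.
Adss, chr1:177796480-177796659, minus strand: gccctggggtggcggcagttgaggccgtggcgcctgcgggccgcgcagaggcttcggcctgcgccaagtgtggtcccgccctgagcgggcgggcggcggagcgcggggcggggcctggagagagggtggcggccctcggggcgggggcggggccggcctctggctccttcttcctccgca
Atic, chr1:71557006-71557185, plus strand: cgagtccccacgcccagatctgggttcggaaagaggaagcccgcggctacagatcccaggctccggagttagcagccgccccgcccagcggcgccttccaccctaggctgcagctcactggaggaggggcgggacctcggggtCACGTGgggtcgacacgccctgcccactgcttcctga
Dut, chr2:125247365-125247544, plus strand: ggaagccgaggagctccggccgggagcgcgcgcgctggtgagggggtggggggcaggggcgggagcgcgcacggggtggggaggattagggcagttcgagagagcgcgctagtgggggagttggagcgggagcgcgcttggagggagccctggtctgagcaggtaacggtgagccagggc
Rrm1, chr7:102441545-102441724, plus strand: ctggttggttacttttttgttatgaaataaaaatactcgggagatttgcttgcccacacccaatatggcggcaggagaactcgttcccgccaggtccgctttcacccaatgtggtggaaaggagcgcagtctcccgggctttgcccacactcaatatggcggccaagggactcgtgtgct
Rrm2, chr12:24708104-24708283, plus strand: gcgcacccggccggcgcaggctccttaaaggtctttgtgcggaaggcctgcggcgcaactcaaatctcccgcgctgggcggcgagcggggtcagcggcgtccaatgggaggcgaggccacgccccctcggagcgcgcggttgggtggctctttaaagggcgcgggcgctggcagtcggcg
Tyms, chr5:30073596-30073775, minus strand: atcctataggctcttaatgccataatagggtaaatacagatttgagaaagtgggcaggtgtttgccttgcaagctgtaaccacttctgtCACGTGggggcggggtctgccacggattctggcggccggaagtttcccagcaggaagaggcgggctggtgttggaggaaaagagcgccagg

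The Atic stretch holds CACGTG with its first base 7 bases before the start, and that of Tyms holds it 61 bases before the start. The stretches of Dut, Rrm1 and Rrm2 hold none of the 4 motifs. That of Adss, which at 63 reads had the largest MYC pileup of all 36 genes, stops inside an overlapping CATGCG and CATGTG, at bases 27 to 32 and 29 to 34 counted with the start as base 1, the former read on the opposite strand. GC content ran from 52.8% at Rrm1 to 80% at Adss. The full promoters of the table run from 250 bases before to 50 after the start. In these, CACGTG occurred in 6 of the 33 members that have an entry (18.2%): Paics, Atic, Impdh2, Tyms, Dtymk and Nme1. Of these only Tyms had its gene-end peak in POH1-Flag cells alone. Over all 17492 protein-coding genes with an entry CACGTG occurred in 8.91%. Over those with a MYC peak of POH1-Flag cells within 1 kb of a start it occurred in 12.9%. For any of the 4 motifs, the last 2 of which can overlap each other, the shares were 13 of 33 members (39.4%), 36.2% of all genes and 45.6% of genes with such a peak. These matches are descriptions of the sequence and not binding sites.

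Reads at each summit were recovered as whole numbers from the deposited fold enrichment and −log10 p, and each is a pileup, the number of fragments that cover the summit. Median pileups over whole lists were 15 reads for Flag, and for MYC 14 in the vector and 15 in the POH1-Flag library, so single sites carry wide counting error. The 3 libraries had genome-wide backgrounds of 0.946, 0.845 and 0.826 reads. Ratios of POH1-Flag to vector reads were scaled by these backgrounds, and their 95% intervals are exact conditional Poisson intervals that cover counting error only. MYC peaks lay near 3 of 10 ductal marker genes in vector cells (Sox9, Muc1 and Spp1) and 4 of 10 in POH1-Flag cells (also Krt7), close to the shares over all genes, and Krt8, Krt18, Krt19 and Epcam had none. They lay near 0 of 8 acinar and 0 of 5 T cell markers in both, 0 and 1 of 7 fibroblast markers and 1 and 2 of 5 macrophage markers. Peaks of MYC do not measure expression, so these counts are no check of cell identity.

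**Figure D1:**
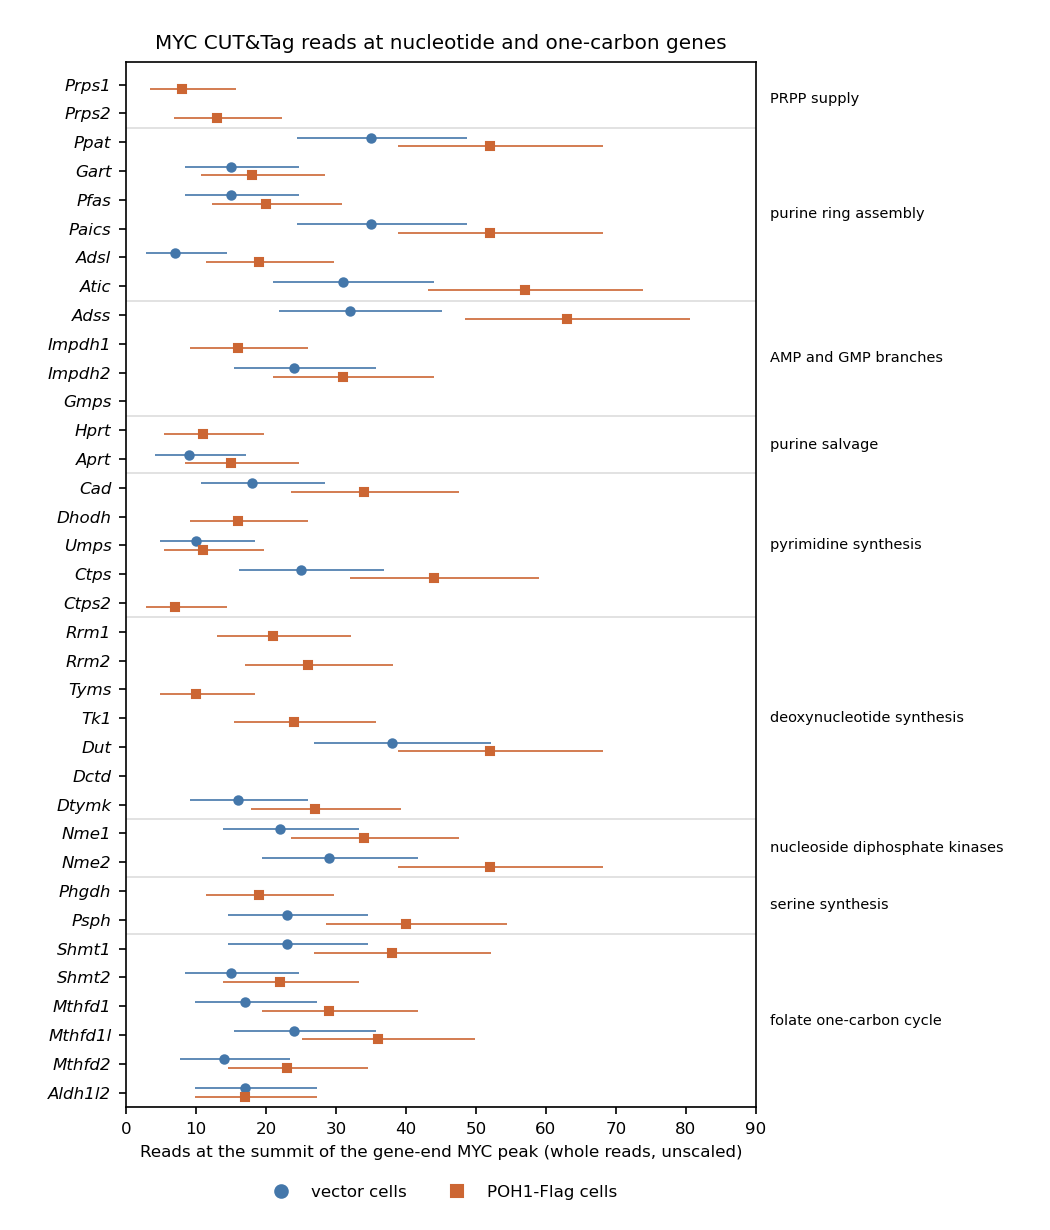
Reads at the summit of the strongest gene-end MYC peak of each of the 36 genes, by pathway branch, on a linear axis of whole reads. Circles are vector cells, squares POH1-Flag cells, bars exact 95% Poisson intervals of each count, and a missing point means that no gene-end peak was listed. Purine ring and folate genes have points in both cell lines, 11 genes have a square alone, and Gmps and Dctd have neither.

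All 6 genes of purine ring assembly had a MYC peak in both cell lines. Atic, which encodes the bifunctional enzyme of the last steps of the ring (chromosome 1, 71557156 to 71579403), had 31 reads in vector cells and 57 in POH1-Flag cells, a ratio of 1.88 (1.19 to 3.01). By −log10 q it stood 171st of 6172 genes with a gene-end peak in vector cells and 32nd of 8755 in POH1-Flag cells. Ppat, the enzyme of the first committed step, and Paics, which catalyses middle steps, lie head to head on chromosome 5 and share a single MYC site, whose summit lay 70 bp into Paics in vector cells. Its pileup was 35 reads in vector and 52 in POH1-Flag cells (ratio 1.52, 0.972 to 2.40). Adsl, which encodes adenylosuccinate lyase, had the weakest vector peak of all members, at 7 reads, and 19 reads in POH1-Flag cells. Its ratio of 2.78 was the highest of the 23 shared genes, with an interval of 1.12 to 7.82.

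Pfas and Gart encode the remaining ring enzymes. Pfas had 15 and 20 reads (1.36, 0.664 to 2.86). At the shared site of Gart the pileup was 15 reads in vector and 16 in POH1-Flag cells (1.09, 0.505 to 2.37). A second Gart peak of POH1-Flag cells, with 18 reads and a summit 931 bp before the start, had no vector partner and lay within 1 kb of the end of the neighbouring gene Son.

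PRPP synthetase genes showed the opposite pattern, with no vector peak at either. In POH1-Flag cells Prps1 (chromosome X, 140456603 to 140476140) had 8 reads, with its summit 5 bp from the start, and Prps2 (chromosome X, 167346320 to 167382872) had 13 reads. The salvage enzyme gene Hprt, also on the X chromosome, had 11 reads in POH1-Flag cells and no vector peak. Aprt, the salvage gene for adenine on chromosome 8, had 9 and 15 reads (1.71, 0.699 to 4.42).

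Branches to AMP and GMP differed among themselves. Adss, the first enzyme from inosine monophosphate to AMP (chromosome 1, 177763176 to 177796695), had 32 reads in vector and 63 in POH1-Flag cells, a ratio of 2.01 (1.3 to 3.19), and its POH1-Flag peak ranked 7th of 8755 genes by −log10 q. Impdh2, the rate-limiting enzyme towards GMP in proliferating cells, had 24 and 31 reads (1.32, 0.751 to 2.35) at a site within 1 kb of the end of Qrich1. Its relative Impdh1 had a gene-end peak of 16 reads in POH1-Flag cells only. A second annotated start of Impdh1, 4067 bp inside the gene, carried peaks in both, of 19 and 27 reads (1.45, 0.779 to 2.77), and a second vector peak of 15 reads overlapped the same POH1-Flag peak, so the gene was not without MYC signal in vector cells.

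Gmps, which makes GMP, had no gene-end peak in either MYC library, but its annotated start lies 12510 bp inside the span of the gene. A peak of 12 reads in vector cells lay 64 bp into the gene from that start, and a peak of 21 reads in POH1-Flag cells lay 100 bp into it (1.79, 0.841 to 3.99). A further Gmps site of 15 and 23 reads missed the 1 kb limit narrowly, with summits 1040 and 1119 bp from the gene end.

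Pyrimidine genes were led by Ctps and Cad. Ctps, CTP synthase (chromosome 4, 120539868 to 120570276), had 25 reads in vector and 44 in POH1-Flag cells (1.80, 1.08 to 3.07). Cad, whose product carries out the first steps of pyrimidine synthesis and which is a classical MYC target (chromosome 5, 31054620 to 31078479), had 18 and 34 reads (1.93, 1.06 to 3.64). An end of Atraid also lies within 1 kb of that site. Its summit lay 164 bp into the gene in vector cells and 62 bp in POH1-Flag cells. At Umps, which completes UMP, the pileups of 10 and 11 reads did not differ detectably at this depth (1.13, 0.434 to 2.96).

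Dhodh, the mitochondrial enzyme of the pathway, had 16 reads in POH1-Flag cells, and the nearest vector summit was 42847 bp away. Ctps2, the X-linked second CTP synthase gene, had the smallest gene-end pileup of POH1-Flag cells among the members, 7 reads. Its only vector peak, of 11 reads, lay deep inside the gene, 53761 bp from the nearer end.

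Of the 7 deoxynucleotide genes, 2 had a peak in vector cells and 6 in POH1-Flag cells. Both ribonucleotide reductase genes among these 7, Rrm1 and Rrm2, had no listed vector peak. Rrm1, the large subunit (chromosome 7, 102441695 to 102469771), had 21 reads in POH1-Flag cells, 123 bp into the gene. Rrm2, the S phase subunit (chromosome 12, 24708254 to 24714146), had 26 reads over a high local background of 5.51 reads. Tyms, thymidylate synthase, had 10 reads.

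Tk1, which salvages thymidine (chromosome 11, 117815519 to 117826087), had 24 reads in POH1-Flag cells over a local background of 7.88 reads, so that its −log10 q was only 3.34. A further site just outside the limit, with summits 1428 bp from the end of Tk1 in vector and 1403 bp in POH1-Flag cells, had 18 reads in vector and 36 in POH1-Flag cells (2.05, 1.13 to 3.83). The gene was not without MYC signal in vector cells. Its POH1-Flag gene-end peak also lies within 1 kb of the end of Afmid.

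The 2 deoxynucleotide genes with peaks in both lists were Dut, which removes dUTP, and Dtymk, the thymidylate kinase. Dut (chromosome 2, 125247248 to 125259049) had the strongest vector peak of all members, at 38 reads, 70th of 6172 genes by −log10 q, and 52 reads in POH1-Flag cells (1.40, 0.904 to 2.19). Dtymk had 16 and 27 reads (1.73, 0.897 to 3.43). Dctd, the dCMP deaminase gene, had no gene-end peak, but peaks of 27 and 33 reads lay at annotated starts 10866 and 10921 bp inside its span (1.25, 0.729 to 2.16).

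Nucleoside diphosphate kinases, which turn diphosphates into triphosphates, had peaks in both lists. Nme2 had 29 and 52 reads (1.83, 1.14 to 3), and its neighbour on chromosome 11, Nme1, had 22 and 34 (1.58, 0.898 to 2.84). Their peaks were separate.

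Serine synthesis was split. Psph, which releases serine in the last step, had 23 and 40 reads (1.78, 1.04 to 3.11) at a site it shares with the end of Cct6a, a chaperonin gene. Phgdh, the first enzyme of the pathway, had a gene-end peak of 19 reads in POH1-Flag cells only. A second Phgdh site lay just beyond 1 kb, with 17 reads in vector cells 1136 bp from the end and 23 reads in POH1-Flag cells 1036 bp from it (1.38, 0.708 to 2.76).

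All 6 folate genes had MYC peaks in both cell lines, at 14 to 24 reads in vector and 17 to 38 in POH1-Flag cells. The serine hydroxymethyltransferase genes Shmt1 (23 and 38 reads, 1.69, 0.982 to 2.97) and Shmt2 (15 and 22 reads, 1.5, 0.744 to 3.11) encode the cytosolic and mitochondrial enzymes that move carbon from serine to folate. Mthfd1, the cytosolic trifunctional enzyme, had 17 and 29 reads (1.75, 0.928 to 3.39), and the mitochondrial Mthfd1l had 24 and 36 (1.53, 0.891 to 2.69). Aldh1l2, which oxidises formyl-folate in mitochondria, had 17 reads in both, the lowest ratio of the members (1.02, 0.491 to 2.13). None of the 6 intervals excluded 1.

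Mthfd2, the mitochondrial enzyme that is high in many tumours, had 2 MYC sites. The site at the gene end had 14 and 23 reads (1.68, 0.829 to 3.53) and lies beside the end of Mob1a. The other, at the annotated start 8407 bp inside the span, was stronger, with 29 reads in vector and 32 in POH1-Flag cells (1.13, 0.662 to 1.93).

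Over the 23 genes with a shared site, a site where the peaks of both MYC lists overlap, all pileups were higher in POH1-Flag cells after scaling by the genome-wide background, Aldh1l2 by the scaling alone. The median log2 ratio was 0.75, a fold of 1.68, with an order-statistic interval over the 23 genes of 0.59 to 0.83. That interval describes the genes of a single pair of libraries and not replicates. With the site that Ppat and Paics share counted once, it was 0.49 to 0.85. Ratios ran from 1.02 to 2.78. Over 6000 protein-coding genes with a shared site the median was 0.72 and 98.4% were higher, so the members lay at the level of other genes. The interval lay above 1 at 7 of the 23 genes (30.4%): Adsl, Adss, Cad, Atic, Nme2, Ctps and Psph. Among all genes with a shared site this was so at 25.6%. The fold of all genes, 1.65, lay inside the interval of each of the 23 members, so no member could be told apart from the general fold by its own counts.

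The local background is the one the peak caller set against each summit. It would come from reads around the site in the same library if no control library was used, which the sources used here do not state. It too was higher in POH1-Flag cells. Its median at the 23 shared sites was 2.23 reads in vector and 3.17 in POH1-Flag cells, and it was higher at 22 of 23. With pileups divided by the local in place of the genome-wide background, the median log2 ratio of the members fell to 0.10, a fold of 1.07, and 13 of 23 genes lay above 1. For all genes it was 0.06, a fold of 1.04. The local background thus moved with the pileups, and its part in the ratios was not tested.

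**Figure D2:**
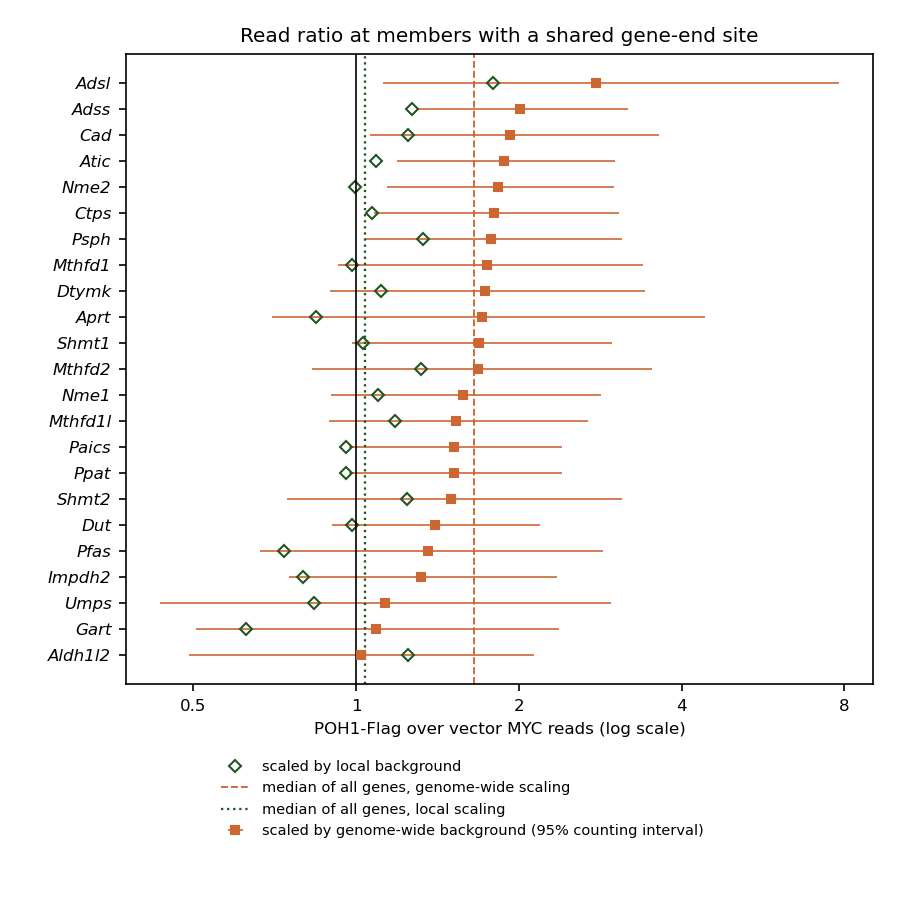
Ratio of POH1-Flag to vector MYC reads on a log axis at the 23 members with a shared gene-end site, ordered by ratio. Squares with 95% counting intervals are scaled by the genome-wide background, open diamonds by the local background, and vertical lines mark 1 and the medians of all genes (1.65 and 1.04). Squares run from 1.02 at Aldh1l2 to 2.78 at Adsl and the diamonds lie around 1.

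The 11 genes with a gene-end peak in POH1-Flag cells only had 7 to 26 reads there, with a median of 16, against 34 at the 23 shared genes. Over all genes these medians were 14 and 26 reads. The vector reads at these sites are not known, since a peak list holds nothing below its threshold. If the relative background were the same, the vector list's lowest −log10 p would correspond to 9 reads at Rrm1, 7 at Dhodh, 16 at Rrm2 and 6 at Ctps2 and Prps1. At the shared sites the local background was lower in vector cells (median 2.23 against 3.17 reads), so these limits may be too high. The scaled POH1-Flag pileups, not lowered by the general fold of 1.65, were 21.5, 16.4, 26.6, 7.16 and 8.19 reads. At Tk1 the scaled pileup was 24.6 reads against a limit of 20, and at Impdh1 16.4 against 13. It was 10.2 against 7 at Tyms, 19.4 against 13 at Phgdh, 11.3 against 7 at Hprt and 13.3 against 6 at Prps2. On these pileups Ctps2, Tk1, Impdh1 and Prps1 lay closest to the limit of detection. Lowered by the general fold of 1.65, the pileups of these genes and of Tyms, Phgdh and Hprt would lie under their limits. These margins do not tell how many reads vector cells had. Of the 13 genes without a gene-end vector peak, 7 had no vector peak anywhere in the gene either: Prps1, Prps2, Hprt, Dhodh, Rrm1, Rrm2 and Tyms. The other 6, Impdh1, Gmps, Ctps2, Tk1, Dctd and Phgdh, had one farther inside.

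All 4 X-linked members, Prps1, Prps2, Hprt and Ctps2, lacked a vector peak near an end and had 7 to 13 reads in POH1-Flag cells, whereas 23 of 32 autosomal members had a vector peak. The X chromosome as a whole had fewer peaks, with 6.42% of its 966 genes marked in vector and 20.6% in POH1-Flag cells, against 29.6% and 41.4% of autosomal genes. Median pileups of marked genes in POH1-Flag cells were 12 reads on the X chromosome and 22 on autosomes. The part of chromosome in the members' pattern was not tested.

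Gene-end peaks are by definition within 1 kb of an end, and in that range their summits lay at similar distances at the members and at all genes. The median distance to the nearer end was 165 bp in vector and 132 bp in POH1-Flag cells at the members, and 154 and 138 bp at all genes with a gene-end peak. Starts were given for 33 members, and with these in place of gene ends 24 had a peak within 1 kb in vector cells and all 33 in POH1-Flag cells, against 30.4% and 43.1% of all 17492 genes with a start. Among these peaks, already limited to 1 kb, the summit lay within 250 bp of the nearest start at 22 of the 24 and 31 of the 33. It lay inside the gene at 16 and 24 of them, and at the median 84 bp from the start in POH1-Flag cells. Where both libraries had a summit it differed in position by a median of 75.5 bp. The largest difference was at Gart, 766 bp, where the second peak in POH1-Flag cells was the stronger. Pfas, Dhodh and Aldh1l2 are not in the promoter table.

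**Figure D3:**
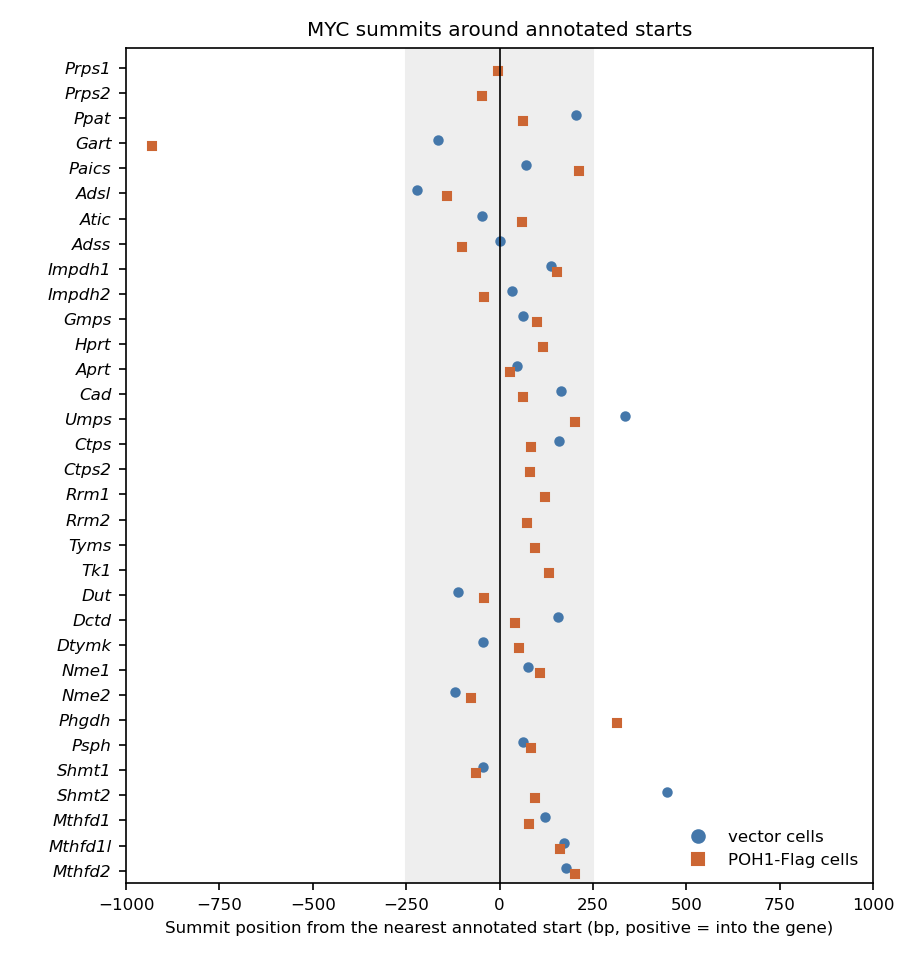
Position of the MYC summit from the nearest annotated start at the 33 members with a start, in bp, positive into the gene. Circles are vector cells, squares POH1-Flag cells, and the grey band spans 250 bp on either side, which holds 22 of 24 circles and 31 of 33 squares.

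Other genes of the same pathways, 66 in a list of salvage, breakdown and transport genes and further enzymes, were marked less fully than the members: 32 (48.5%) in vector and 41 (62.1%) in POH1-Flag cells, with no Flag peak. Over all genes the shares were 28.2%, 40% and, for Flag, 0.196%. The difference from the members was not tested, since both lists were chosen with results of these data known. At their 32 shared sites the median log2 ratio was 0.76, near that of the members, and 11 intervals lay above 1, beside 25.6% over all genes with a shared site. Among purine and salvage genes (8 and 10 of 18 marked) the largest pileups in POH1-Flag cells were at Ampd2, an AMP deaminase (22 and 42 reads, 1.95, 1.14 to 3.44), Adk, adenosine kinase (31 and 35 reads, 1.16, 0.692 to 1.94), and Guk1, guanylate kinase (14 and 31 reads, 2.27, 1.17 to 4.61).

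Of the other pyrimidine and deoxynucleotide genes, 12 and 16 of 22 were marked. Rrm2b, the ribonucleotide reductase subunit that p53 induces, had 17 and 34 reads (2.05, 1.11 to 3.91), the uridine kinase gene Uck2 26 and 29 (1.14, 0.649 to 2.02) and Dguok, a mitochondrial deoxyguanosine kinase, 20 and 27 (1.38, 0.746 to 2.60). Rrm2b thus had a vector peak, which its relative Rrm2 did not.

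Among serine, glycine and folate genes (12 and 15 of 26 marked), Mat2a, which makes S-adenosylmethionine, had 41 and 45 reads (1.12, 0.719 to 1.76), and Slc25a32, the mitochondrial folate carrier, 22 and 39 (1.81, 1.05 to 3.21). Psat1, which encodes the serine enzyme between Phgdh and Psph, had 41 and 33 reads, and its ratio of 0.824 (0.505 to 1.34) was the only one under 1 among the 32 shared genes of this list. It is named after its value was seen. Its interval holds 1.

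**Figure D4:**
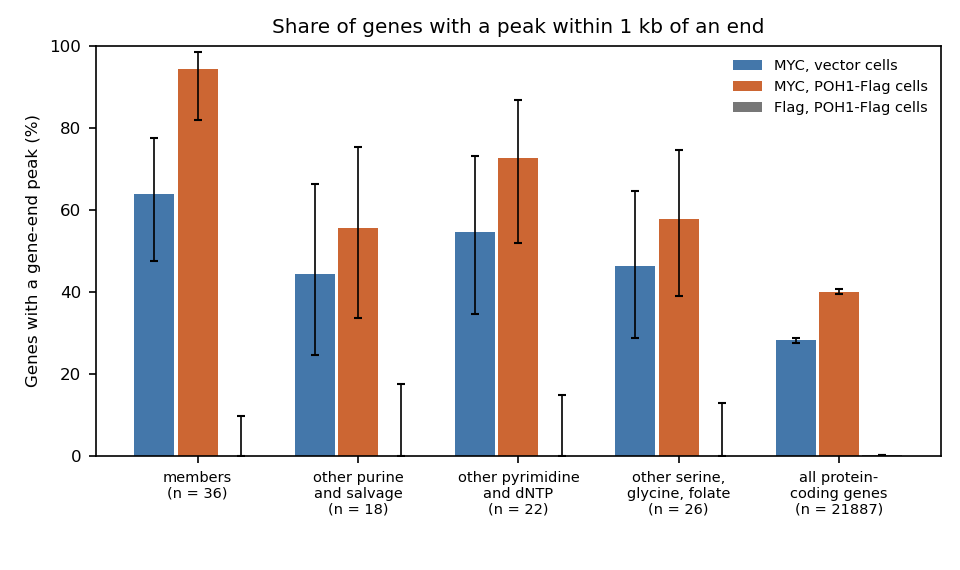
Share of genes with a peak within 1 kb of a gene end, in percent, for the 36 members, 3 lists of other pathway genes and all 21887 protein-coding genes. Bars are MYC in vector cells, MYC in POH1-Flag cells and Flag, with Wilson 95% intervals, which treat the genes as random draws. Members stand at 63.9% and 94.4% for MYC, all genes at 28.2% and 40%, and Flag at 0% for each list and 0.196% for all genes.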

How the data were processed

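Peaks of 3 CUT&Tag libraries on GRCm38 were used, 1 list per library and thus not called on pooled reads. Per the submitters' processing notes, MACS2 2.2.7.1, BWA 0.7.17-r1188, Trim Galore 0.6.6 and FastQC 0.11.9 were used, without stated roles or parameters. The sources used here give neither a control library nor the handling of duplicates. Duplicates that were kept would make the counting intervals too narrow.

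The deposited narrowPeak columns hold the authors' fold enrichment (a linear ratio of summit to background), −log10 p and −log10 q, a display score of 10 times the deposited −log10 q, and positions in bp. The fold, −log10 p and −log10 q are within-library values, and ranks by −log10 q are within 1 list. The pileup k and background λ of a peak follow from 2 equations, fold = (k + 1)/(λ + 1) and p as the Poisson tail beyond k. In each list k came out whole, within 0.01 of a read step, for 100% of peaks, and the solver recovered 100% of 2000 simulated pileups. The lowest λ of a list was its genome-wide background, which scales the POH1-Flag to vector ratio by 1.02.

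A gene's peak was that of largest −log10 q with a summit within 1 kb of a gene end. Shared sites overlapped by at least 1 bp. Every member is accounted for, and other pathway genes are named by the 3 largest POH1-Flag pileups per list, of which 1 is not reported here. Medians have order-statistic intervals. No test between groups was run. The members and lists were chosen with earlier results of these data known. Work was done in Python 3.11.15 with scipy 1.17.1.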

Additional observations from a re-analysis of the deposited data

How the results depend on the processing

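Counts of members with a gene-end peak depended on the threshold. At a −log10 q of at least 10 they were 12 in vector and 18 in POH1-Flag cells, beside 6.91% and 20.1% of all genes. Peaks in POH1-Flag cells only were then at 6 of the 24 members without a vector peak of that strength, beside 14.3% of all genes without one. With fold enrichment of 5 or more they were at 7 of 17 (15.3% of all such genes). At a −log10 q of at least 5 the counts were 20 (all genes 18.9%), 28 (33.9%) and 8 of 16 (19.1%). A vector peak below the threshold counts as none here, so these POH1-Flag-only counts take in genes with weaker vector peaks. In the full lists 11 genes had a gene-end peak in POH1-Flag cells only. Of these, 6 reached a −log10 q of 5 and 1 reached 10. Across summit windows of 500 bp and 2 kb, any overlap with the 1 kb window, the annotated start alone, and either end or an annotated start (added after the data were seen), vector counts ran from 22 to 26, POH1-Flag counts from 33 to 36 and POH1-Flag-only counts from 9 to 11. Counts with the annotated start alone are out of 33 members. Over all genes the shares ran from 25.2 to 30.8% in vector and 36.1 to 43.5% in POH1-Flag cells. For POH1-Flag only they were 16 to 19.1% of all genes without a vector peak. Flag counts were 0 in all 8 alternatives, beside 0.064 to 0.347% of all genes, so a count of 0 among 36 genes says little. The median log2 ratio was 0.10 with local backgrounds and 0.0303 when centred on all shared gene-end sites, as that centring takes out the median of all genes. Under the other 4 alternatives it was 0.63 to 0.75. With local backgrounds the log2 ratio was below 0 at 10 of the 23 genes, from -0.67 at Gart to -0.006 at Nme2, the only one of them whose interval under genome-wide scaling lay above 1. No paired analysis was possible because each group has a single library. Depth limits most single-gene ratios: 16 of 23 intervals held 1.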
